A study of Diplotaxodon limnothrissa and Petrotilapia genalutea and Rhamphochromis longiceps with 60 samples.

Results

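Cholesterol synthesis was followed here through the RNA of 10 of its enzymes, mvd, idi1, fdps, fdft1, sqle, lss, msmo1, nsdhl, ebp and dhcr7, in the livers and skeletal muscles of Lake Malawi cichlids. The members were taken by gene symbol, and all 10 are among the 29676 genes listed in each of the 2 expression tables. The tables hold 23 libraries of total RNA depleted of ribosomal RNA, each from 1 wild-caught adult male. They are 3 livers each of Maylandia zebra (MZ), Diplotaxodon limnothrissa (DL) and Petrotilapia genalutea (PG), 2 livers of Rhamphochromis longiceps (RL), and 3 muscles of each of these species. Both tissues came from the same animal in 11 fish. MZ and PG live over rocks and graze algae, whereas DL and RL live in open water, DL as a deep-water carnivore and RL as a predator of fish. No treatment was given. The fish were bought dead from fishermen, each species at a place of its own, so that species, place, way of capture and time since death cannot be told apart, and the labels give no age. MZ fish 1 was recorded as another colour morph than MZ fish 2 and 3.

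Cholesterol is built from acetyl-CoA. The mevalonate pathway first makes isoprenoid units, which are joined to squalene, closed to a sterol ring and trimmed in a series of oxidations and reductions. Liver is a main site of this synthesis in vertebrates. In mammals the genes of the pathway are switched on together by the transcription factor SREBP-2 (gene srebf2) when sterols in the cell are low. These statements are background and were not measured here.

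The values are TPM, a relative abundance scaled to the same total in each library, which the authors computed after assigning reads to transcripts of M. zebra, whichever species they came from. TPM takes account of transcript length, so levels of different genes can be set side by side, but it keeps no read counts and the depth behind each value is unknown. Differences were tested with limma on log2(TPM + 1) over all genes of a tissue, and a gene is called where the Benjamini-Hochberg adjusted p is under 0.01. Fold changes on this scale understate those of genes with low TPM. The libraries of a species are separate fish, so the spread is that between animals. Since these are bulk tissues, fewer cells of a type and less RNA per cell cannot be told apart.

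The enzymes were far more abundant in MZ livers than in the livers of the other species. Summed over the 10 enzymes, the 3 MZ livers held 1008, 1722 and 3608 TPM, against 89.6, 43.5 and 97.4 TPM in DL, 23.9, 85.0 and 183 TPM in PG and 59.9 and 50.8 TPM in RL livers. The lowest MZ liver thus lay above every other liver. For 9 of the 10 enzymes each MZ liver also lay above every one of the other 8 livers taken singly, a pattern met by 1.46% of all 16613 genes tested in liver. nsdhl was the exception.

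**Figure D1:**
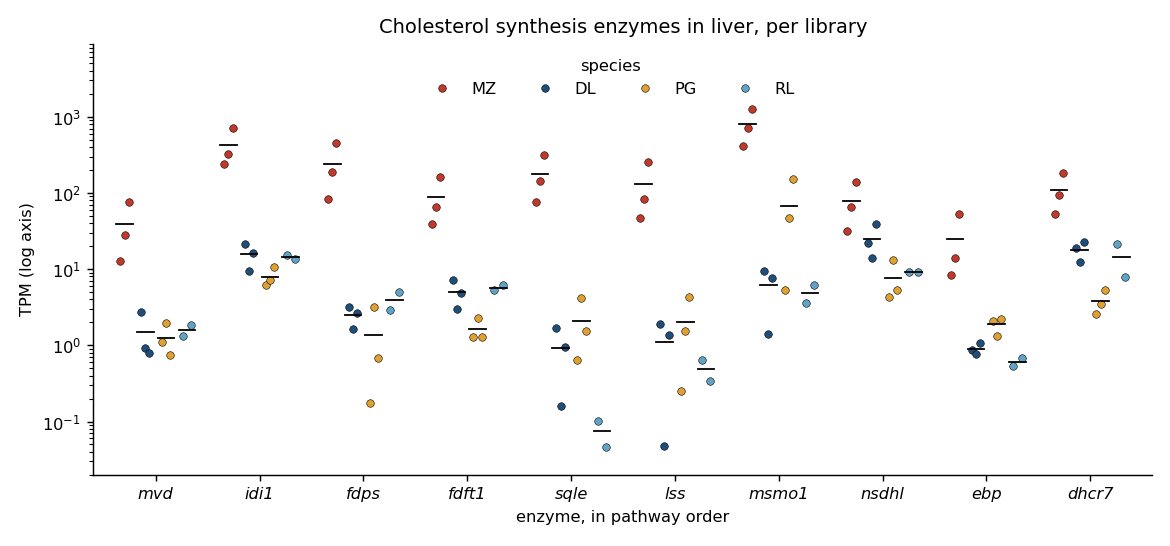
TPM of the 10 enzymes in each of the 11 livers, on a log axis, with the enzymes in the order of the pathway (points are fish, black lines are means of a species). The MZ points stand above all others for every enzyme but nsdhl, where DL fish 3 (39.6 TPM) passes MZ fish 1 (32.0 TPM).

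The mevalonate part of the pathway is represented by the first 3 enzymes. mvd, which decarboxylates mevalonate diphosphate to isopentenyl diphosphate, had 12.6, 28.2 and 77.1 TPM in MZ livers, against 2.76, 0.912 and 0.795 TPM in DL, 1.10, 1.95 and 0.749 TPM in PG and 1.34 and 1.83 TPM in RL livers. It was the least abundant of the 3 in each MZ liver. idi1, the isomerase that turns isopentenyl diphosphate into its reactive partner dimethylallyl diphosphate, had 242, 320 and 715 TPM in MZ livers, against 21.6, 9.47 and 16.2 TPM in DL, 6.25, 7.12 and 10.5 TPM in PG and 15.2 and 13.5 TPM in RL livers. The MZ fish were set apart from all others by a wide margin, and the other 3 species overlapped only in part, with PG lowest. fdps, which joins isoprenoid units to farnesyl diphosphate, had 83.9, 190.1 and 452 TPM in MZ livers, against 3.15, 1.63 and 2.67 TPM in DL, 0.176, 3.21 and 0.682 TPM in PG and 2.90 and 4.94 TPM in RL livers. Every non-MZ liver was at 4.94 TPM or below.

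The next 3 enzymes commit the pathway to sterols. fdft1, squalene synthase, reached 39.0, 64.6 and 162 TPM in MZ livers, against 7.21, 3.01 and 4.87 TPM in DL, 1.27, 2.31 and 1.28 TPM in PG and 5.25 and 6.20 TPM in RL livers. PG livers had the lowest mean, though no pair without MZ was called. sqle, squalene epoxidase and a rate-controlling step in mammals, reached 75.2, 143 and 314 TPM in MZ livers, against 1.69, 0.158 and 0.951 TPM in DL, 0.644, 4.15 and 1.53 TPM in PG and 0.102 and 0.0467 TPM in RL livers. The RL livers had almost no sqle, and the gap to MZ was the widest of the enzymes in that pair (log2 difference 7.14, SE 0.62). lss, which closes squalene epoxide to lanosterol, the first sterol, reached 47.4, 84.3 and 258 TPM in MZ livers, against 1.92, 0.0473 and 1.35 TPM in DL, 0.250, 1.54 and 4.26 TPM in PG and 0.635 and 0.340 TPM in RL livers. Levels of lss varied many-fold among DL fish and among PG fish.

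The last 4 enzymes trim lanosterol towards cholesterol. msmo1, a methylsterol monooxygenase that takes part in the removal of methyl groups from the ring, was the most abundant enzyme in every MZ liver, at 415, 719 and 1259.8 TPM, against 9.33, 1.42 and 7.57 TPM in DL, 5.25, 46.6 and 151 TPM in PG and 3.54 and 6.11 TPM in RL livers. PG fish varied widely for msmo1, and PG fish 2 and 3 came closer to MZ than any DL or RL fish. nsdhl, a sterol dehydrogenase of the same demethylation, had 32.0, 65.7 and 138 TPM in MZ livers, against 22.0, 13.9 and 39.6 TPM in DL, 4.25, 13.3 and 5.28 TPM in PG and 9.23 and 9.30 TPM in RL livers. Here DL and MZ overlapped. ebp, the isomerase that moves a double bond in the ring, had 8.29, 13.9 and 53.4 TPM in MZ livers, against 0.866, 0.767 and 1.06 TPM in DL, 2.09, 1.32 and 2.22 TPM in PG and 0.542 and 0.678 TPM in RL livers. dhcr7, a reductase that can make cholesterol in the final step, had 52.7, 93.0 and 179.9 TPM in MZ livers, against 19.1, 12.2 and 22.4 TPM in DL, 2.58, 3.47 and 5.29 TPM in PG and 21.2 and 7.84 TPM in RL livers. The difference of dhcr7 between DL and PG livers (log2 difference 1.98, SE 0.50) missed the threshold (limma adjusted p = 0.0178).

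In the tests, 8 of the 10 enzymes were higher in MZ than in DL livers, where 1.2% of all genes were higher. nsdhl (adjusted p = 0.0953) and dhcr7 (adjusted p = 0.0108) were not called. Against PG livers 7 of 10 were higher in MZ, with 0.319% of all genes, and msmo1 (adjusted p = 0.0264), nsdhl and ebp (both adjusted p = 0.0113) were not called. Against RL livers 8 of 10 were higher in MZ, with 0.837% of all genes, and nsdhl (adjusted p = 0.0323) and dhcr7 (adjusted p = 0.0152) were not called. All 30 differences were above 0, between 1.49 and 7.14 on the log2 scale. Their medians over the 10 enzymes were 4.16 against DL, 4.63 against PG and 4.12 against RL, whereas the medians over all genes tested were -0.40, -0.17 and -0.15.

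Ratios of mean TPM show the same differences on the linear scale. Means in MZ livers were 190.5-fold those of DL livers for sqle, 131-fold for msmo1, 117-fold for lss and 97.3-fold for fdps, but 6.06-fold for dhcr7 and 3.13-fold for nsdhl. In the same pair only 5 of the 16613 genes had a larger log2 difference than msmo1, 8 a larger one than sqle and 10 a larger one than fdps. Against PG only 3 genes had a larger one than fdps and 5 a larger one than sqle.

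**Figure D2:**
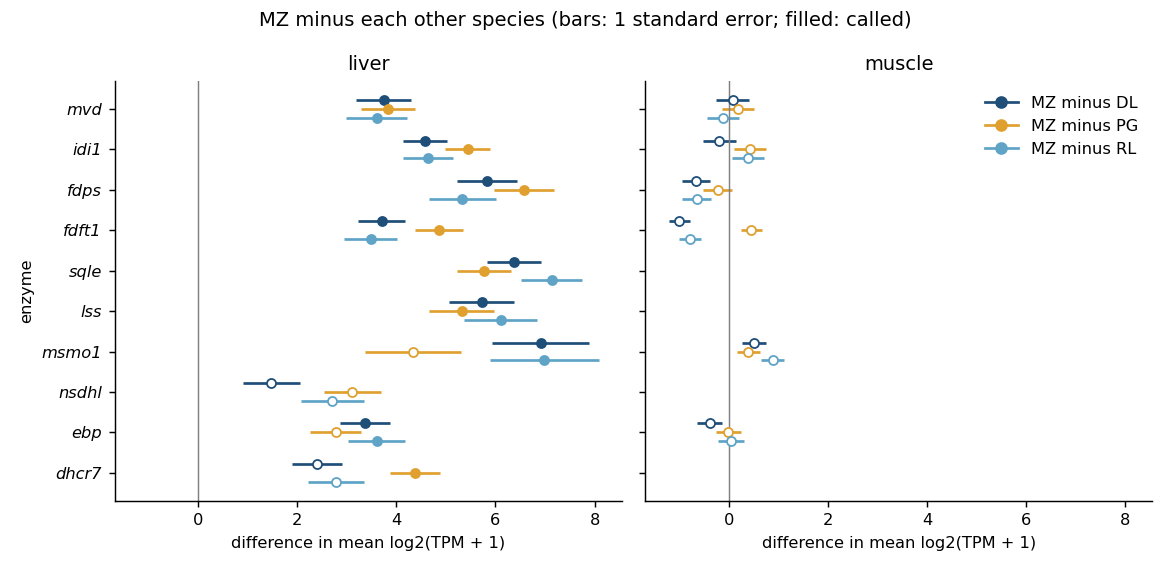
Differences in mean log2(TPM + 1) between MZ and DL, PG and RL, in liver (left) and muscle (right), on one scale, with bars of 1 standard error and filled symbols for differences called at an adjusted p under 0.01. Liver differences lie between 1.49 and 7.14, and the muscle differences of the 6 enzymes tested there lie between -0.99 and 0.89 with none called.

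The enzymes idi1, fdps, fdft1, sqle, lss and mvd, 6 of the 10, were called higher in MZ against each of the other 3 species. Of all genes tested in liver 30 had this pattern, or 0.181%. Of these 30 genes 6 were the enzymes named and 19 carry only a locus identifier. The others included pmvk and sc5d, further enzymes of the pathway described below, aacs, and rdh12, a retinol dehydrogenase. The 3 pairs share the MZ livers and are not independent of one another.

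Between the other 3 species no enzyme was called in liver. Of all genes 9.93% were called in at least 1 pair of these species, a share at which no call among 10 enzymes is not unusual. limma found 0 of 30 differences among DL, PG and RL past the threshold, with 8 of 30 at an unadjusted p under 0.05. The 8 were not all in one direction. Against PG, DL was higher for fdft1, nsdhl and dhcr7 and lower for msmo1, and PG was lower than RL for fdft1 and dhcr7 and higher for sqle and msmo1. In the pair DL and RL, the 2 open-water species, none of the 10 reached an unadjusted p of 0.05.

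The comparison by habitat, DL and RL livers against MZ and PG livers, called 6 enzymes lower in the open-water species (idi1, fdps, sqle, lss, msmo1 and ebp), with 3.38% of all genes lower. The values do not split by habitat, however. Only for ebp did the DL and RL livers, at 0.542 to 1.06 TPM, all lie below the MZ and PG livers, at 1.32 to 53.4 TPM. For idi1 the DL and RL livers had 9.47 to 21.6 TPM, against 6.25 to 10.5 TPM in PG livers, so that among these 3 species the open-water fish mostly had the higher levels. Without RL fish 2 or without RL fish 3 the number called was 3. The error in each comparison by habitat, here and below, is the spread among fish within species. It does not measure how species that share a habitat differ, so the calls hold for these species only.

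The 3 MZ fish differed strongly among themselves, and in the same order for every enzyme. MZ fish 3 had the highest and MZ fish 1, the fish of another colour morph, the lowest level of each of the 10 enzymes. Ratios of the highest to the lowest were between 2.96 (idi1) and 6.44 (ebp). The share of all genes with this order was not counted. Outside the 10 enzymes insig1 and npc2 did not have it, but other genes such as faxdc2 and amfr did. The 75th percentile of TPM over all genes, 1.80, 2.90 and 4.05 in MZ fish 1, 2 and 3, followed the same order, and lay between 2.90 and 5.13 in the other 8 livers. MZ fish 1 thus had the lowest percentile of the 11 livers. The part of these differences between libraries in the order of the MZ fish was not tested. Forcing all libraries to one distribution by quantile normalization left 9, 9 and 10 of the 10 enzymes called higher in MZ against DL, PG and RL.

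Shares of the summed level show how the balance of the enzymes differed. In the MZ livers msmo1 made up 41.2%, 41.7% and 34.9% of the sum, idi1 23.99%, 18.6% and 19.8%, and fdps 8.33%, 11.04% and 12.5%. The shares of these enzymes thus differed far less among the 3 MZ fish than their sums did. In DL livers nsdhl was the most abundant of the 10, with 24.6%, 31.9% and 40.6% of the sum. Among PG fish the leading enzyme was idi1 in fish 1 (26.2%) and msmo1 in fish 2 (54.8%) and fish 3 (82.6%). In RL livers dhcr7 led in fish 2 (35.4%) and idi1 in fish 3 (26.7%).

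**Figure D3:**
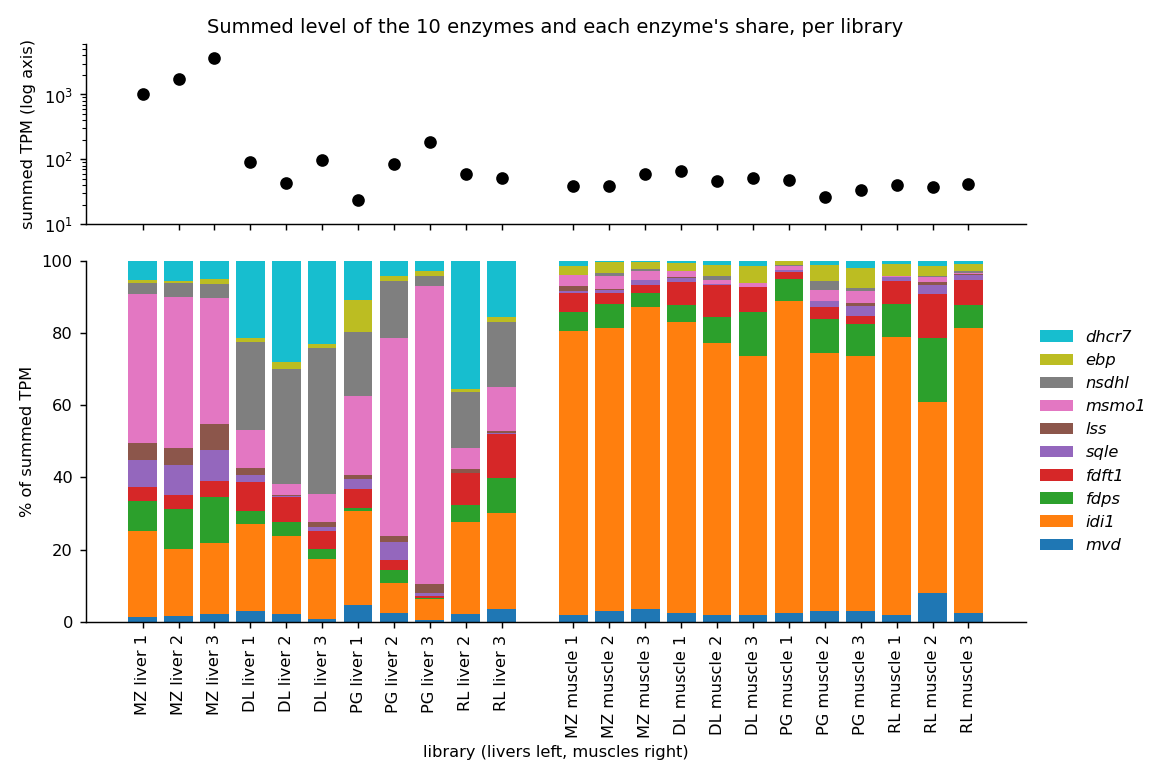
Summed TPM of the 10 enzymes on a log axis (top) and the share of each enzyme in that sum (bottom) for each library, with livers left and muscles right. The 3 MZ livers reach 1008 to 3608 TPM, all other livers 23.9 to 183 TPM, and idi1 takes most of the sum in each of the 12 muscles.

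As a description of how the enzymes varied together, deviations from the species means correlated between 0.299 and 0.957 over the 45 pairs of enzymes in the 11 livers, with a median of 0.697. Correlations of log2(TPM + 1) itself keep the differences between species, so they are not on a par with those of the deviations. Their median was 0.91 over the 11 livers. Over the 8 livers without MZ they ran between -0.868 and 0.878 with a median of 0.176, and 16 of 45 were above 0.5. Over the 12 muscles the median was -0.0062. The points of each pair share their libraries.

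Markers of cell types were looked at beside the MZ result. Of the hepatocyte list 6 of 23 genes are listed (hnf4a, tf, fgb, fgg, rbp4 and c9), and their summed level was 15054 to 22329.5 TPM in MZ livers, against 28837 to 34743 TPM in DL, 31612 to 34534 TPM in PG and 11803 to 22235 TPM in RL livers. No hepatocyte marker was called between MZ and another species (limma, 0 of 18 differences, with 10 at an unadjusted p under 0.05). The share of all genes called in either direction in these pairs was not counted, so this is a description. The 6 of 12 leukocyte markers that are listed summed to 169 to 453 TPM in MZ livers, against 39.0 to 118 TPM in DL, 193 to 275 TPM in PG and 46.9 to 52.6 TPM in RL livers, and mpeg1, a macrophage gene, was higher in MZ than in DL and RL. Sums of the 2 of 17 exocrine pancreas markers ran from 11.9 to 526 TPM in MZ livers, against 211 to 300.5 TPM in DL, 38.8 to 155 TPM in PG and 238 to 649 TPM in RL livers. Sums of the 3 of 10 adipocyte markers ran from 56.3 to 130.2 TPM in MZ livers, against 89.4 to 155 TPM in DL, 127 to 705 TPM in PG and 192 to 245 TPM in RL livers. None of the 10 erythrocyte markers is listed under its symbol. The sum of the 3 of 22 muscle markers was 20.8 to 30.1 TPM in MZ livers. In DL livers it was 5.95 to 121 TPM (highest in fish 2). In PG livers it was 16.7 to 36.1 TPM and in RL livers 1.63 to 15.3 TPM. Of these markers mb, the myoglobin gene, was called higher in MZ than in DL and RL livers. It had 19.1 to 27.4 TPM in MZ livers, above the 2.31 to 17.8 TPM in MZ muscles. myl1 and tcap did not share this pattern. myl1 had 1.44 to 2.62 TPM in MZ livers, against 1.31 to 77.9 TPM in the other 8 livers, and was not called for MZ. tcap had at most 0.0713 TPM in MZ livers, against up to 36.5 TPM in the other 8. The part of these cells in the result was not tested.

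Reads of all 4 species were assigned to transcripts of MZ itself, and the part of this in the liver result was not tested.

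In muscle the enzymes were low and differed little between species. The summed level was 39.0, 38.8 and 59.9 TPM in MZ muscles, against 66.2, 47.1 and 51.5 TPM in DL, 47.4, 26.6 and 33.8 TPM in PG and 41.0, 37.6 and 41.1 TPM in RL muscles, so that the species overlapped. idi1 alone made up between 53.01% and 86.6% of the sum. It had 30.8, 30.5 and 50.2 TPM in MZ muscles, against 53.4, 35.5 and 36.9 TPM in DL, 41.1, 19.1 and 23.9 TPM in PG and 31.5, 19.9 and 32.5 TPM in RL muscles. No other enzyme passed 6.66 TPM (fdps in RL fish 2). sqle, lss, nsdhl and dhcr7 were under 1 TPM in each of the 12 muscles, and these 4 enzymes did not pass the filter of 1 TPM in 2 libraries, which leaves 6 of 10 tested.

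The 1 enzyme called in muscle was fdft1. It had 4.25, 4.08 and 3.64 TPM in DL muscles, against 0.830, 0.926 and 0.715 TPM in PG muscles, a log2 difference of 1.45 (SE 0.22, limma adjusted p = 0.00105). PG muscles were likewise below the RL muscles, at 2.65, 4.60 and 2.86 TPM (log2 difference of PG minus RL -1.24, SE 0.22, adjusted p = 0.00219). MZ muscles, at 2.05, 1.23 and 1.32 TPM, lay between these groups. The comparison by habitat again takes its error from fish within species. In it fdft1 was higher in DL and RL than in MZ and PG muscles (log2 difference 1.11, SE 0.16, limma adjusted p = 0.000359), with 8.45% of all genes higher. These levels are within a few TPM of 0, where the depth is unknown. Over all 6 pairs of species 2 of 36 differences in muscle were called, with 8 at an unadjusted p under 0.05. Of all genes 17.7% were called in at least 1 pair, and 1 of the 6 enzymes tested is near that share. In the fit of PG and RL alone, or without PG fish 3, the difference between PG and RL was no longer called.

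limma called 0 of 18 differences between MZ and another species in muscle, with 6 at an unadjusted p under 0.05. Of all genes 7.83% were called in at least 1 of these 3 pairs, a share at which no call among 6 enzymes is not unusual. msmo1 had 1.16, 1.502 and 1.35 TPM in MZ muscles, against 0.150 to 1.08 TPM in the 9 other muscles, levels near the filter of 1 TPM. Its largest difference (0.89 against RL, SE 0.23) was not called (limma adjusted p = 0.0262). fdps had 1.99 to 2.52 TPM in MZ muscles, against 2.50 to 6.66 TPM in the others, and was not called either. The difference of fdft1 was -0.99 against DL (SE 0.22, adjusted p = 0.0162) and -0.77 against RL (SE 0.22, adjusted p = 0.0356).

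Within species, liver was set against muscle in 1 fit of all 23 libraries. sqle, lss, nsdhl and dhcr7 were under 1 TPM in every muscle and came into this fit only through the livers, so a higher level in liver was bound up with their being tested. Their values are therefore given as a description, and the counts are over the 6 enzymes that passed the filter in each tissue by itself, beside the 14558 genes that did so. Among the 6, msmo1 was under 1 TPM in 8 muscles and mvd in 7. In muscle msmo1 passed the filter chiefly through MZ, so its low level in the other muscles bears on its differences. In MZ all 6 were higher in liver, by between 3.22 (ebp) and 8.27 (msmo1) on the log2 scale, with 6.44% of those genes higher. In DL limma called 0 of 6 higher, with 2 differences at an unadjusted p under 0.05, 1 of them idi1 (lower in liver), and with 10.5% of genes higher. In PG 1 of the 6, msmo1 (log2 difference 4.33, SE 0.75), was higher, with 10.2% of genes. In RL limma called 0 of 6 higher, with 1 at an unadjusted p under 0.05, and with 8.58% of genes.

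As a description, nsdhl differed between liver and muscle by 5.79 in MZ, 4.32 in DL, 2.53 in PG and 3.23 in RL, and dhcr7 by 6.30, 3.61, 1.84 and 3.31 in these species (SE between 0.39 and 0.49). In every one of the 11 fish with both tissues the liver held more of either transcript than the muscle, as it did for lss and msmo1.

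idi1 was the only enzyme called in opposite directions between species. In each DL fish the liver also held less fdps and ebp than the muscle, though neither was called there. The log2 difference of idi1 between liver and muscle was 3.36 in MZ (SE 0.39). It was -1.40 in DL (SE 0.39, limma adjusted p = 0.00586), with 20% of genes lower in liver, and -1.65 in PG (SE 0.39, adjusted p = 0.0019), with 18.1% of genes lower in liver. In RL it was -0.89 (SE 0.44, adjusted p = 0.117). In each of the 3 MZ fish the liver was above the muscle, and in each of the 8 fish of the other species it was below. The call in DL was lost without any one of 5 of the 6 DL libraries (all but liver 1) and that in PG without PG liver 1 or muscle 1.

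**Figure D4:**
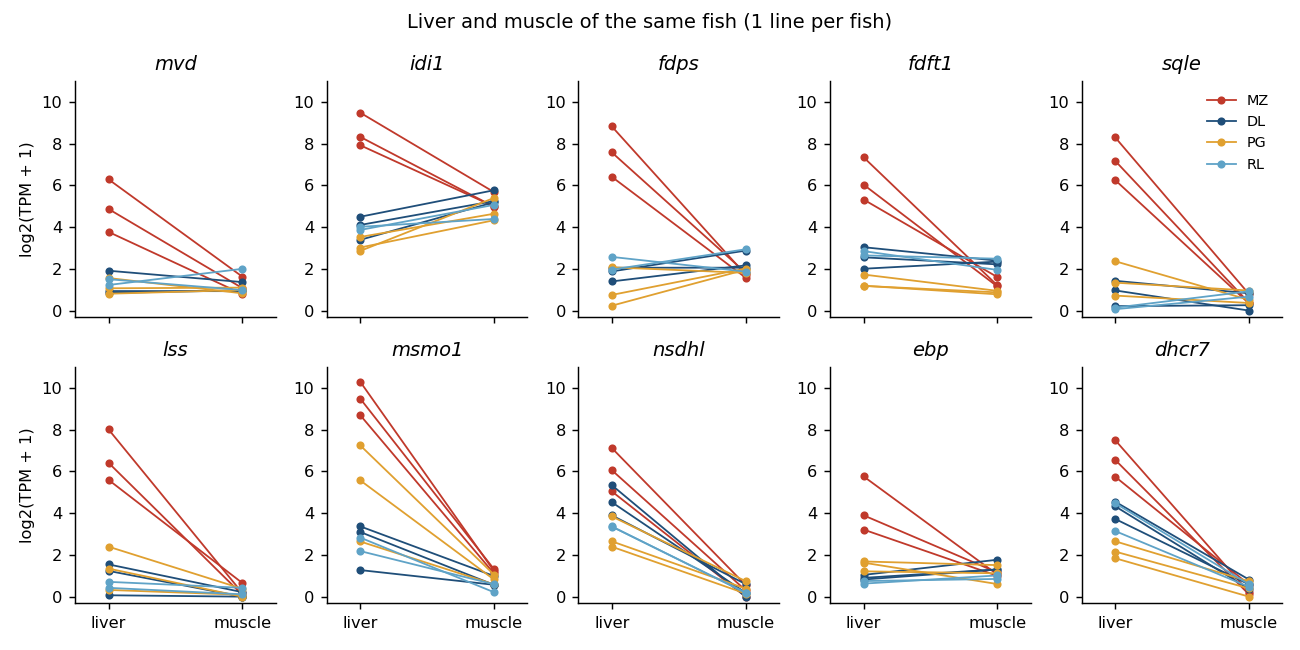
log2(TPM + 1) of each enzyme in the liver and the muscle of the same fish, 1 line per fish, in the 11 fish with both tissues. The MZ lines fall steeply towards muscle for all 10 enzymes, the lines of the other species are flat for most, and those of idi1 rise towards muscle in all 8 fish that are not MZ.

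Whether the species differences themselves differed between tissues was tested as an interaction. For sqle, lss, nsdhl and dhcr7 such a difference largely restates that in liver, since their levels in muscle were near 0, and the counts are again over the other 6 enzymes. Of these, msmo1 and mvd were also under 1 TPM in most muscles. Against DL all 6 had a larger MZ difference in liver than in muscle, with 0.522% of genes, and the excess was 3.67 to 6.48. Against PG 5 of 6 did, with 0.261% of genes, and the excess of these 5 was 2.79 to 6.80, msmo1 being the one not called. Against RL all 6 did, with 0.591% of genes, and the excess was 3.56 to 6.10. ebp against PG lay just inside the threshold (adjusted p = 0.00994) and was not called in 26 of 30 alternatives. Among the 3 pairs without MZ limma called 0 of 18 such differences, with 1 at an unadjusted p under 0.05. Of genes 5.36% were called in at least 1 of these pairs, a share at which no call among 6 enzymes is not unusual. With the fish as a block the numbers against DL, PG and RL were 6, 4 and 5, since ebp against PG (adjusted p = 0.0265) and RL (adjusted p = 0.0115) was then not called.

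RL is represented by 2 livers, which sets how firmly the MZ and RL pair can be read. Without RL liver 2, or without RL liver 3, 2 of the 10 enzymes (idi1 and sqle) were still called. In the pairs with DL and PG the count stayed between 8 and 9 and between 6 and 8 whichever of the 11 livers was left out. idi1 and sqle were called in all 3 MZ pairs under each of the 21 alternatives tried.

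The rest of the pathway was described from lists of genes by role. Of 16 further enzymes of sterol synthesis 9 are listed under their symbols. hmgcs1, an enzyme upstream of mevalonate, and the lanosterol demethylase cyp51 are not listed under these symbols and are not analysed here. pmvk, a kinase of the mevalonate steps, and sc5d, a sterol desaturase, were higher in MZ against all 3 species. sc5d had 75.2, 125 and 243 TPM in MZ livers, against 5.86 to 13.5 TPM in DL, 2.37 to 10.6 TPM in PG and 3.88 and 5.01 TPM in RL livers. For pmvk the values were 29.8, 36.5 and 70.7 TPM in MZ livers, against 0.333 to 3.63 TPM in DL, 1.81 to 7.57 TPM in PG and 1.85 and 1.78 TPM in RL livers. Neither enzyme thus overlapped between MZ and the other livers. The log2 differences of sc5d were 3.66 (SE 0.54) against DL, 4.26 (SE 0.54) against PG and 4.62 (SE 0.60) against RL, and those of pmvk were 4.38 (SE 0.54), 3.16 (SE 0.54) and 3.95 (SE 0.61) against these species. acat2, a thiolase that makes acetoacetyl-CoA, and tm7sf2, a sterol reductase, were called higher in MZ against PG alone of the 3 species (log2 differences 3.27 and 3.69), and tm7sf2 was also higher in DL than in PG (2.32). Each MZ liver was nevertheless above every other liver for both. acat2 had at least 27.5 TPM in MZ livers against at most 11.6 TPM in the others, and tm7sf2 at least 31.1 against at most 26.5 TPM. Of all genes tested in liver 1.46% had this pattern. mvk, ggps1 and lbr were not called in any pair of livers.

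**Figure D5:**
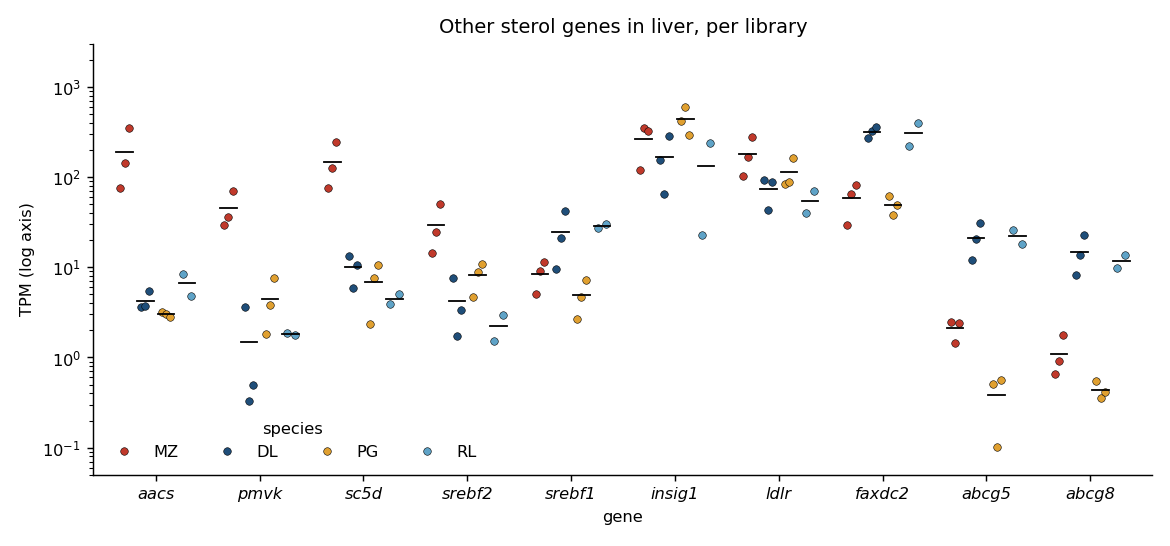
TPM of 10 further sterol genes in each of the 11 livers, on a log axis (points are fish, black lines are means of a species). aacs, pmvk and sc5d are highest in MZ, srebf2 less so, and faxdc2, abcg5 and abcg8 are high in DL and RL and low in MZ and PG.

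faxdc2, a hydroxylase-domain gene of the same list, had another pattern, high in DL and RL livers and low in MZ and PG livers. It had 29.6, 65.03 and 82.6 TPM in MZ livers, against 269, 329 and 364 TPM in DL livers (log2 difference -2.53, SE 0.42, adjusted p = 0.00361). PG livers, at 61.8, 37.8 and 49.2 TPM, were below DL and below RL livers, the RL livers being at 219.9 and 394 TPM. By habitat faxdc2 was higher in DL and RL than in MZ and PG (log2 difference 2.55, SE 0.32).

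Genes that sense sterols or take them up were not called between pairs of species in liver. Of 25 genes of this list 13 are listed, and limma called 0 of 39 differences between MZ and another species (16 at an unadjusted p under 0.05) and 0 of 39 among the other species (6 at an unadjusted p under 0.05). Of all genes 1.2%, 0.319% and 0.837% were higher in MZ against DL, PG and RL. The share lower was not counted, so the first count is a description. Among the other species 9.93% of all genes were called in at least 1 pair, a share at which no call among 13 genes is not unusual. srebf2 had 14.5, 24.3 and 50.1 TPM in MZ livers, against 7.65, 1.74 and 3.32 TPM in DL, 4.67, 8.80 and 11.02 TPM in PG and 1.52 and 2.95 TPM in RL livers. Each MZ liver was above every other liver, but the adjusted p was 0.0104 against DL, 0.0954 against PG and 0.0116 against RL. ldlr, the receptor that takes up cholesterol-rich lipoprotein, had 102, 166 and 277 TPM in MZ livers, against 42.8 to 91.8 TPM in DL, 84.3 to 165 TPM in PG and 39.8 and 70.2 TPM in RL livers. insig1, which holds the SREBP complex in the endoplasmic reticulum, had 119, 353 and 323 TPM in MZ livers, against 65.7 to 286 TPM in DL, 297 to 607 TPM in PG and 22.9 and 240.0 TPM in RL livers, with overlap throughout. srebf1, whose product drives fatty acid synthesis, had 5.06 to 11.5 TPM in MZ livers, against 9.66 to 42.5 TPM in DL, 2.64 to 7.29 TPM in PG and 27.3 and 30.4 TPM in RL livers. By habitat srebf1 was higher and srebf2 lower in DL and RL (log2 differences 1.84 and -2.00).

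Among genes of sterol storage, efflux and bile acid synthesis 7 of 22 are listed, and the 2 called in pairs of livers were abcg5 and abcg8, which together form a pump that exports sterols into bile in mammals. abcg5 had 2.48, 1.45 and 2.42 TPM in MZ livers, against 12.1, 20.7 and 30.8 TPM in DL livers and 26.3 and 18.3 TPM in RL livers, and PG livers were lower still, at 0.502, 0.101 and 0.556 TPM. abcg8 had 0.652, 0.905 and 1.76 TPM in MZ livers, against 8.12, 13.7 and 22.7 TPM in DL, 0.547, 0.360 and 0.415 TPM in PG and 9.86 and 13.8 TPM in RL livers. The log2 difference of MZ minus DL was -2.76 (SE 0.36) for abcg5 and -2.84 (SE 0.36) for abcg8, and that of MZ minus RL was -2.90 and -2.63. PG was lower than both open-water species too. By habitat abcg5 and abcg8 were higher in DL and RL (log2 differences 3.41 and 2.99). Outside the DL and RL livers, abcg8 reached 1 TPM only in MZ fish 3. It came into the liver fit only through the species where it is high, so all its differences are a description. nr1h3, a sterol-sensing receptor, was also called higher in DL and RL livers by habitat (1.55), which makes 3 of the 7 genes. The share of all genes higher by habitat in liver was not counted. These calls, and those of faxdc2 and srebf1 above, are therefore a description. Of 14 genes on branches that leave the pathway, such as those of ubiquinone and dolichol, 11 are listed. limma called 0 of 33 of their differences between MZ and another species, with 10 at an unadjusted p under 0.05. The share of all genes called in either direction in these pairs was not counted, so this is a description.

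Between tissues, faxdc2, insig1 and pgrmc1, which passed the filter in each tissue by itself, were higher in liver than in muscle in each of the 4 species. Of the genes that passed likewise 6.44%, 10.5%, 10.2% and 8.58% were higher in liver in MZ, DL, PG and RL. Other genes went the other way. Of the 13 genes that sense sterols or take them up, 3 in MZ, 0 in DL, 1 in PG and 1 in RL were called lower in liver. In muscle, pmvk was higher in MZ than in DL (log2 difference 1.60, SE 0.28) and lower in DL than in PG (-1.40, SE 0.28), and acat2 was higher in DL than in PG (1.17, SE 0.27). Of all genes 17.7% were called in at least 1 pair of muscles. npc1 and npc2, which carry cholesterol out of lysosomes, and rnf139 were lower in DL and RL than in MZ and PG muscles by habitat (-1.05, -2.03 and -0.99). They are 3 of the 12 genes tested that sense sterols or take them up. soat1, which esterifies cholesterol, was likewise lower there (-1.59, SE 0.31), as 1 of 2 tested on its list. It was under 1 TPM in every DL and RL muscle and came into the muscle fit only through MZ and PG. A lower level in DL and RL was thus bound up with its being tested, and its value is a description. coq6 and pdss1, of ubiquinone synthesis, were higher (1.31 and 0.86), as 2 of 11 tested on the branches. Of all genes 8.45% were higher by habitat in muscle, and the share lower was not counted. The counts of genes lower by habitat in muscle are therefore a description.

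The genes whose liver profile was most like the mean z-score of the 10 enzymes were taken by Pearson's r on log2(TPM + 1) over 11 livers, out of the 6406 others that averaged 5 TPM or more. The gap between MZ and the rest sets these values, which are a description. The first 5 were LOC101473459 (r = 0.987), sc5d (0.984), LOC101474726 (0.983), aacs (0.979) and LOC111501472 (0.977). aacs, acetoacetyl-CoA synthetase, which feeds ketone bodies into lipid synthesis, had 76.3, 143 and 354 TPM in MZ livers, against 3.65, 3.76 and 5.41 TPM in DL, 3.20, 3.04 and 2.81 TPM in PG and 8.52 and 4.78 TPM in RL livers. LOC101474726 had 249, 569 and 1247 TPM in MZ livers, against 7.17 to 32.4 TPM in the other 8. In muscle the genes most like the members' mean over 12 libraries were adam9 (r = 0.900), LOC101476047 (0.894), thrap3 (0.892), ankfy1 (0.891), rbpj (0.890) and fam168a (0.889), and none of the 5 with a gene symbol is an enzyme of the pathway.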

How the data were processed

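Livers and muscles of wild-caught cichlids were sequenced as ribosome-depleted total RNA. The authors trimmed the reads with Trim Galore, used kallisto to assign them, whatever the species, to transcripts of the UMD2a assembly of M. zebra, and deposited TPM for each gene in each library. Columns were tied to fish through the sample list of the study. TPM keeps no counts, so the depth and the precision of low values are unknown, and no model for counts was used.

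limma 3.58.1 in R 4.3.3 was fitted to log2(TPM + 1) with a variance trend. A gene was tested if 2 or more of the libraries fitted reached 1 TPM, which left 16613 genes for liver, 18101 for muscle and 20549 for the joint fit. Species was the only term within a tissue. The comparison by habitat set the mean of DL and RL against that of MZ and PG, with fish, not species, as the replicates. Liver and muscle, and the interaction with species, were tested in 1 fit of all libraries. Counts over members in this fit are over those that passed the filter in liver and in muscle by themselves, a choice made after seeing the data. The 23 libraries were the replicates, adjustment was by Benjamini-Hochberg within each contrast over all genes, and the threshold was 0.01. Figures were drawn with Python 3.11.15 and matplotlib 3.10.9.

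Both tissues of a fish come from the same animal. Their deviations from the group means correlated between 0.0920 and 0.160 over 11 fish (10 above 0.1), and between -0.131 and 0.0331 over 22 pairs of liver and muscle from different fish. An alternative fit therefore took the fish as a block.

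The members and lists were chosen with earlier results of these data known. All 10 members are named. In the other pathway lists genes called in a comparison are named, up to 8 per list by lowest adjusted p, as far as the comparisons described, with srebf1, srebf2, insig1 and ldlr. The 6 genes most like the members' mean profile were taken per tissue. Some genes that these rules take are not reported here. Other genes, named as markers or as called in all 3 MZ pairs, were chosen after their values were seen. Marker lists are those of hepatocytes, skeletal muscle, exocrine pancreas, erythrocytes, adipocytes and leukocytes.

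The fits were tested on simulated data in which 200 genes differed by 3 on the log2 scale. In the pair MZ and PG 82.5% of them were recovered in liver and 87.5% in muscle. Between tissues in MZ it was 87.5%, and in the interaction of MZ and PG 66.5%. False calls numbered 2 or 3. The simulated noise was independent between libraries, so it did not model tissues that share a fish or the depth. The genes made to differ were drawn from those with a mean log2(TPM + 1) above 2 in the libraries fitted. The rates do not cover lower levels, such as those of most of the enzymes in muscle. Alternatives were pseudocounts of 0.1 and 0.5, no filter, a mean of at least 5 TPM, quantile normalization, no variance trend, an adjusted p under 0.05, a further difference of at least 50 TPM, fits of 1 pair of species, a replicate block, and leaving out each library. Differentially methylated regions, the Lake Victoria species and promoter sequences were not used here.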

Additional observations from a re-analysis of the deposited data

Results flagged for a closer look

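Each of the following is a difference between species that itself differed between the tissues, tested as an interaction of species and tissue in the limma fit of all libraries. The values are the log2 difference in liver minus that in muscle, so a positive one means that MZ exceeded the other species by more in liver than in muscle.

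Against DL the values were 4.77 for idi1, 6.48 for fdps, 4.70 for fdft1, 6.23 for sqle, 5.49 for lss, 6.40 for msmo1, 3.75 for ebp, 2.69 for dhcr7 and 3.67 for mvd. Against PG they were 5.01 for idi1, 6.80 for fdps, 4.41 for fdft1, 5.88 for sqle, 5.17 for lss, 3.25 for nsdhl, 2.79 for ebp, 4.46 for dhcr7 and 3.63 for mvd. Against RL they were 4.25 for idi1, 5.98 for fdps, 4.26 for fdft1, 7.33 for sqle, 5.98 for lss, 6.10 for msmo1, 3.56 for ebp, 2.99 for dhcr7 and 3.72 for mvd. For idi1, fdps, fdft1, msmo1, ebp and mvd the limma adjusted p was between 9.22e-06 and 0.00169 against DL. Against RL it was between 3.59e-05 and 0.00247. Against PG, without msmo1, it was between 1.49e-05 and 0.00994. The 3 sets share the MZ libraries. sqle, lss, nsdhl and dhcr7 were under 1 TPM in every muscle and came into this fit only through the livers. Their values largely restate the differences in liver and are given as a description. msmo1 and mvd were under 1 TPM in most muscles. With a pseudocount of 0.1, lss was not called against any of the 3 species (adjusted p = 0.0196 against DL, 0.0459 against PG and 0.0105 against RL). The value of ebp against PG depended on the setting, and it was not called in 26 of 30 alternatives. With the fish as a block, dhcr7 against DL and RL, nsdhl against PG and ebp against PG and RL were not called.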

How the results depend on the processing

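Over 2113 values of single enzymes under the alternatives, which cover the 30 liver differences of MZ and the differences called elsewhere, none changed direction, 1976 stayed on their side of the threshold, 114 lost a call and 23 gained one. For many of these values the direction could not change. Another threshold, filter or variance trend, or leaving out a library outside the groups compared, leaves the difference itself as it was. In the pairs of MZ with DL, PG and RL, no call of idi1 or sqle was lost. mvd lost most (13 of 63), and dhcr7 gained most (11 of 63). In liver 23 calls over the 6 pairs of species became 18 to 26 without single libraries and 22 with the replicate block, in which the number of a fish is shared across species as a number only. The 19 calls between tissues over all 10 enzymes became 18 to 20 without single libraries, 19 with the replicate block and 9 where a difference of at least 50 TPM was also asked for, since most members outside MZ livers are below that level. The 27 interaction calls over all 10 enzymes became 23 to 28 without single libraries, 22 with the replicate block and 18 with a pseudocount of 0.1. These tissue and interaction counts include sqle, lss, nsdhl and dhcr7, which came into the joint fit only through the livers. A higher level in liver was bound up with their being tested, so the counts describe the settings only. Over the 6 enzymes that passed the filter in each tissue, the interaction calls were 6, 5 and 6 against DL, PG and RL. Of differences not called, that of mvd between RL liver and muscle was 0.09, and -0.13 with the block. The 6 liver calls by habitat became 3 to 7 without single libraries and stayed 6 with the block. In muscle the 2 calls over pairs of species became 0 with a mean of at least 5 TPM, where 1 enzyme remained to test, 0 with a difference of at least 50 TPM, 4 with quantile normalization, 5 with an adjusted p under 0.05, 1 in fits of a single pair and 1 to 3 without single libraries (1 without PG fish 3). The 1 muscle call by habitat became 0 with a mean of at least 5 TPM and with a difference of at least 50 TPM, 2 with an adjusted p under 0.05, and stayed 1 without any single library. The cause of the other changes was not tested. Low values in muscle and in livers outside MZ are limited by a depth that TPM does not show.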
